A study of Mus musculus with 11 samples.

Results

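The 10 genes described here encode transcription factors of limb identity and limb mesenchyme, namely Pitx1, Tbx4, Tbx5, Tbx2, Tbx3, Tbx15, Prrx1, Shox2, Msx1 and Msx2. They were taken as a list of names with no threshold on measured values, though with earlier results of these data known, and all 10 were found among the 28222 genes of the count table and among the 16132 genes that were tested. The libraries were made from polyadenylated RNA of mesenchymal stem cells (MSCs) from mouse bone, a stromal population with the potential to become osteoblasts, adipocytes or chondrocytes. The mice were either young (3 to 5 months) or old (18 to 22 months), culture was at 2% oxygen for each group, and no genetic or drug treatment was named. By the labels, the 11 libraries fall into 4 young ones of batch A, 2 young and 2 old ones of batch B, and 3 old ones of batch C. In the study's methods, MSCs were grown out of bone chips of tibia and femur of wild-type male C57BL/6N mice and were sorted as CD45-/TER-119-/CD140a+/Sca-1+ cells, but those methods describe young mice and an oxygen comparison and were assumed to hold here. The labels do not say whether libraries of a group came from separate mice, so that p-values measure the spread between libraries, which may be technical.

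In the vertebrate embryo, the paired-type homeodomain protein Pitx1 specifies the hind limb and activates Tbx4, whereas the related T-box factor Tbx5 starts the outgrowth of the forelimb. Prrx1 and Shox2 are homeodomain factors of limb bud mesenchyme, Tbx15 acts in the mesenchyme that forms skeletal elements, and Tbx2, Tbx3, Msx1 and Msx2 act mainly as transcriptional repressors, the Msx genes as targets of bone morphogenetic protein (BMP) signalling. Connective tissue cells of adult limbs are known to keep part of this positional expression in culture.

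The 5 homeobox genes differ at the codon of the third helix of the homeodomain that sets which DNA core is read, shown here because this residue separates Pitx1, the gene on which the comparison within a batch turns, from the other 4. The 18 bases that code for tryptophan, phenylalanine, the variable residue, asparagine and 2 arginines were taken from the GENCODE M21 transcripts, and the variable codon is in capitals.
Pitx1: tggttcAAGaaccggcga
Prrx1: tggtttCAGaaccgaaga
Shox2: tggtttCAAaatcgaaga
Msx1: tggttcCAGaaccgtcgc
Msx2: tggttcCAGaaccgaagg
The codon was AAG, lysine, in Pitx1, and CAG or CAA, glutamine, in Prrx1, Shox2, Msx1 and Msx2. Lysine at this place is typical of bicoid-type homeodomains. On the GRCm38 assembly, the 18 bases lie in coding exons on the minus strand, at chr13:55826591-55826608 in exon 3 of 3 for Pitx1, at chr1:163257922-163257939 in exon 3 of 4 for Prrx1, and at chr3:66975890-66975907 in exon 3 of 5 for Shox2. For Msx1 they lie at chr5:37821498-37821515 in exon 2 of 2, and for Msx2 at chr13:53468391-53468408 in exon 2 of 2.

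The T-box genes lie in neighbouring pairs. Tbx2 (ENSMUSG00000000093, chr11:85832551-85841948) and Tbx4 (ENSMUSG00000000094, chr11:85886422-85916097) follow each other on the plus strand of chromosome 11, and Tbx3 (ENSMUSG00000018604, chr5:119670669-119684724) and Tbx5 (ENSMUSG00000018263, chr5:119832668-119885219) on the plus strand of chromosome 5. Tbx15 (ENSMUSG00000027868) spans chr3:99240381-99354259. The longest stretch of identical bases between annotated transcripts was 23 for Tbx4 and Tbx5, 14 for Tbx2 and Tbx3 and 22 for Msx1 and Msx2, so that the members of each pair differ within the length of a read. Pitx1 (ENSMUSG00000021506, chr13:55825051-55836192) overlaps the antisense gene Gm47071, which had 95 counts in all libraries together, and the first part of Shox2 (ENSMUSG00000027833, chr3:66971727-66981771) overlaps the coding gene Rsrc1 on the opposite strand, which had 7883 counts. It is not given in the sources used here whether strand was used in counting, so that a part of the Shox2 counts could belong to Rsrc1. Prrx1 (ENSMUSG00000026586) spans chr1:163245119-163313710, Msx1 (ENSMUSG00000048450) spans chr5:37820485-37824583 and Msx2 (ENSMUSG00000021469) spans chr13:53466884-53473074.

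The table of RefSeq promoters on GRCm38.p6 matched 5 of the 10 genes (Prrx1, Shox2, Msx1, Tbx4 and Msx2). In the 250 bases before the RefSeq start of transcription, 4 motifs were searched on both strands. These were TATAAA (the letters of a TATA box), TAATTA (a palindromic homeodomain core), TAATCC (the bicoid-type core) and AGGTGTGA (a T-box half-site). TAATTA, the core read by homeodomains with glutamine, occurred in Prrx1 and in Msx2, and in 4.84% of all 32851 promoters. All 250 bases of the Msx2 window lie in annotated exons of GENCODE M21, so that the Msx2 match is in sequence annotated as transcribed. TATAAA occurred in Shox2 and Tbx4 and in 12.4% of all promoters. In Shox2 it lay at -203 to -198 from the RefSeq start. These are matches of letters, and whether they act as a TATA box was not tested. TAATCC and AGGTGTGA, found in 6.25% and 1.12% of all promoters, occurred in none of the 5 windows. The Prrx1 and Tbx4 windows are shown as examples of each motif in their surroundings, with the motif in capitals. The Prrx1 stretch is the part outside annotated exons, at chr1:163313711-163313900 on the minus strand, and the Tbx4 stretch is at chr11:85896515-85896764 on the plus strand, inside the gene as GENCODE M21 annotates it.
Prrx1: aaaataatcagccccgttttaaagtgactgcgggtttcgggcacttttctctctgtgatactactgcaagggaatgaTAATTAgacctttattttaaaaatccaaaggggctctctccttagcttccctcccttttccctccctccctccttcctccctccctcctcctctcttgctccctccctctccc
Tbx4: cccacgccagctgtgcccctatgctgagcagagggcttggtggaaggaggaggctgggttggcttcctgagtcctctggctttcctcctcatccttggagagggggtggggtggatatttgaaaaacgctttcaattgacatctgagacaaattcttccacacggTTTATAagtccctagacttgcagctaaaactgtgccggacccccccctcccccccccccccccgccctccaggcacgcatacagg
TTTATA in Tbx4 is TATAAA on the opposite strand. TAATTA lay 173 to 168 bases before the RefSeq start in Prrx1, and the TATAAA match of Tbx4 lay 85 to 80 bases before the RefSeq start. The last 60 bases of the Prrx1 window, next to its RefSeq start, lie in annotated exons and are not printed.

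Libraries held between 11969336 and 20315934 counts, and 3 counts, taken as the smallest detectable level, corresponded to 0.156 to 0.253 CPM (the count of a gene scaled to a fixed library total, with totals corrected by TMM factors). TMM factors were 0.889 to 0.926 in batch A, 0.948 to 1.02 in batch B and 1.15 to 1.16 in batch C. Genes with at least 1 count numbered 17817 to 18706 in batch A, 18954 to 20161 in batch B and 20091 to 20500 in batch C. The 8 MSC and stromal markers, among them Pdgfra (CD140a) and Ly6a (Sca-1) used for the sort, were present in all libraries. Their summed level was 91000 to 100500 CPM in batch A, 45520 to 75260 CPM in batch B young, 39960 to 42620 CPM in batch B old and 37510 to 39650 CPM in batch C. Most of this sum was Col1a1 and Col1a2, with group means of 55990 and 35040 CPM in batch A young and 18970 and 15510 CPM in batch C old. Pdgfra (189.0 against 278.0 CPM) and Cxcl12 (1558 against 2794 CPM) had higher means in batch C old. The sort marker Ly6a had a lower mean in batch C old (293.4 CPM) than in batch A young (456.1 CPM). Of the 8 markers, 2 were higher and 5 lower in batch C old than in batch A young at an adjusted p under 0.05 in edgeR. Of all tested genes 27.1% were higher and 31.4% lower by this criterion. The 10 leukocyte markers summed to 624.5 to 1358 CPM in batch A, 353.9 to 716.9 CPM in batch B young, 715.4 to 1034 CPM in batch B old and 125.5 to 146.3 CPM in batch C, in cells that the methods describe as sorted for CD45-. The 6 cartilage markers summed to 5179 to 6998, 4370 to 6180, 2298 to 2567 and 3871 to 4589 CPM in the same order, most of it Comp and Col2a1. The 6 endothelial markers summed to at most 9.89 CPM, the 4 erythroid markers to at most 1.45 CPM, and the 4 skeletal muscle markers present in the table to 26.2 to 64.2 CPM.

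To compare genes, levels were divided by the length of the longest annotated transcript. Prrx1 was the most abundant, with 65.5 ± 12.1 CPM per kb (SD, n = 11), followed by Tbx15 with 34.5 ± 4.80, Pitx1 with 18.9 ± 6.47 and Shox2 with 17.7 ± 3.45 CPM per kb. Prrx1 thus exceeded 94.5% of all tested genes by this measure. Tbx4 (4.53 ± 1.07 CPM per kb) stood between these and the 5 lowest genes, which were Msx1 (2.15 ± 0.457), Tbx3 (1.77 ± 0.544), Msx2 (0.982 ± 0.403), Tbx2 (0.726 ± 0.369) and Tbx5 (0.640 ± 0.538). The ranges over all libraries separated Prrx1 from Tbx15, Shox2 from Tbx4, and Tbx4 from Msx1, and all other neighbours in this order overlapped. Relative to its own level Tbx5 varied most, with a highest library 9.37 times the lowest, and Tbx15 varied least, with 1.62 times.

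**Figure D1:**
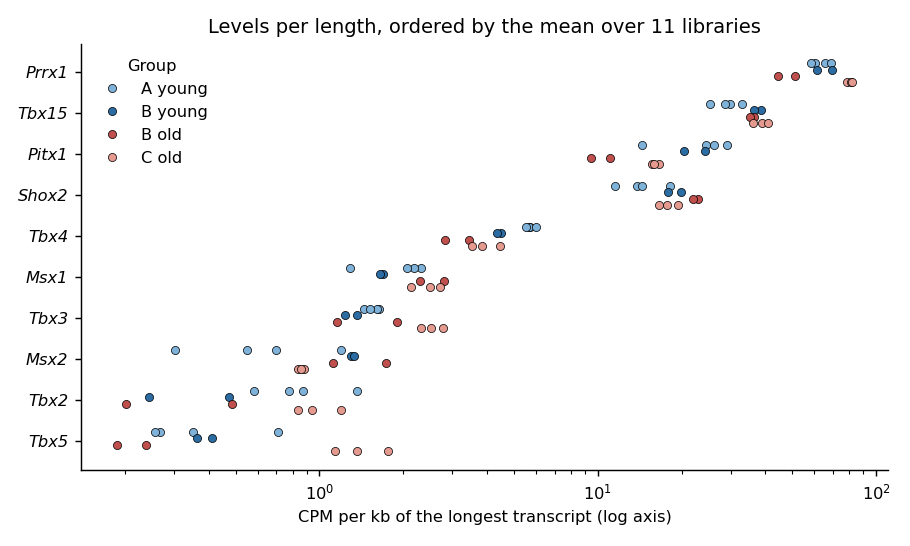
Levels in CPM per kb of the longest transcript (log axis) of the 10 genes in 11 libraries, 1 point per library, coloured by group and ordered by the mean. Prrx1 lies at 44.5 to 81.7 CPM per kb and Tbx5 at 0.188 to 1.76 CPM per kb.

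The first comparison addressed the difference between old and young cells within batch B, the only batch with both ages. Pitx1 was lower in old cells, and it was the only one of the 10 genes to pass the threshold of an adjusted p under 0.05 in edgeR's quasi-likelihood test. Thus, 1 of 10 genes was called, in a comparison in which 2.23% of all 16132 tested genes were called (0.694% higher and 1.54% lower in old cells). The share of higher genes among all calls was 31.1%, and 44.8% under scaling by total counts. DESeq2 called 2 genes and limma-trend 1 gene, all lower. None of the 10 genes was called higher by edgeR, limma-trend or DESeq2. At an unadjusted p under 0.05 in edgeR 4 of the 10 genes differed, beside 2597 of all 16132 tested genes. Of these 4, Pitx1, Tbx4 and Prrx1 were lower and Msx1 was higher in old cells. The median log2 fold change of the 10 genes was -0.08, beside 0.0045 for all tested genes.

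Pitx1 reached 59.67 and 50.04 CPM in the 2 young libraries of batch B and 27.0 and 23.2 CPM in the 2 old libraries, which are the lowest of all 11. The groups did not overlap. This and all later statements on overlap are descriptions, since the share of all tested genes without overlap was not counted. With 2 libraries in each group, separation arises easily by chance. The Pitx1 log2 fold change was -1.13 ± 0.23 (SE, with a 95% interval of -1.61 to -0.65 and an adjusted p of 0.0143, edgeR). The mean fell from 54.9 to 25.1 CPM, on 348 to 1145 counts per library. The call rests on few libraries, since the adjusted p was 0.0855 without old replicate 1, 0.103 without old replicate 2 and 0.0988 without young replicate 1, and 0.0101 without young replicate 2, where the log2 fold change was -0.99 to -1.25.

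Between the same libraries all 10 leukocyte markers had positive log2 fold changes (median 0.63) and all 6 cartilage markers negative ones (median -0.52). Of the leukocyte markers 0 passed the threshold in edgeR (5 at an unadjusted p under 0.05, and 1 in DESeq2), and of the cartilage markers 2 did, both lower. Of the 8 MSC markers 7 had negative values (median -0.43, and 4 at an unadjusted p under 0.05), and 1 was called lower, the sort marker Pdgfra (-0.86, adjusted p = 0.00591, edgeR). Of all 16132 tested genes 2.23% were called between these libraries, and 2597 had an unadjusted p under 0.05 (edgeR). Of the 2 skeletal muscle markers tested, Des was called higher (2.15, adjusted p = 0.00283, edgeR). The part of these marker genes in the Pitx1 difference was not tested, and in these bulk samples fewer cells that express a gene and less of its RNA per cell cannot be told apart.

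Tbx4, the T-box gene downstream of Pitx1 in the embryonic hind limb, did not pass the threshold in batch B. It stood at 14.2 and 13.7 CPM in young and at 8.89 and 10.8 CPM in old libraries, which did not overlap (log2 fold change -0.50 ± 0.16, 95% interval -0.83 to -0.17, adjusted p = 0.111, edgeR). Prrx1, at 451.1 and 399.9 CPM in young and 290.6 and 334.8 CPM in old libraries, missed the threshold with an adjusted p of 0.0708 in edgeR and passed it in DESeq2 with 0.00752 (log2 fold change -0.44 ± 0.12), and also passed it in edgeR with no filter (adjusted p = 0.0245) and without young replicate 2 (adjusted p = 0.0154). Its 4 libraries did not overlap between ages either.

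The forelimb gene Tbx5 was low, with 1.62 and 1.43 CPM in young and 0.741 and 0.935 CPM in old libraries of batch B, on 11 to 31 counts (log2 fold change -0.86 ± 0.48, interval -1.88 to 0.16, adjusted p = 0.399, edgeR). Shox2, a regulator of proximal limb growth, was at 61.3 and 54.8 CPM in young and 70.3 and 67.7 CPM in old libraries (0.25 ± 0.16, adjusted p = 0.464, edgeR). The BMP target Msx1 was at 3.28 and 3.20 against 4.45 and 5.41 CPM (0.60 ± 0.27, adjusted p = 0.286, edgeR). For both Shox2 and Msx1 all old libraries lay above all young libraries without a call.

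The remaining genes showed smaller differences in batch B. Tbx15 had a log2 fold change of -0.06 with an interval of -0.32 to 0.19, the narrowest of the 10. Tbx3 (0.23, interval -0.22 to 0.68), Msx2 (0.12, interval -0.70 to 0.93) and Tbx2 (-0.10, interval -1.14 to 0.93) had libraries that overlapped between ages. Tbx2 had 11 to 33 counts per library here, and its interval was the widest of these 4 genes.

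**Figure D2:**
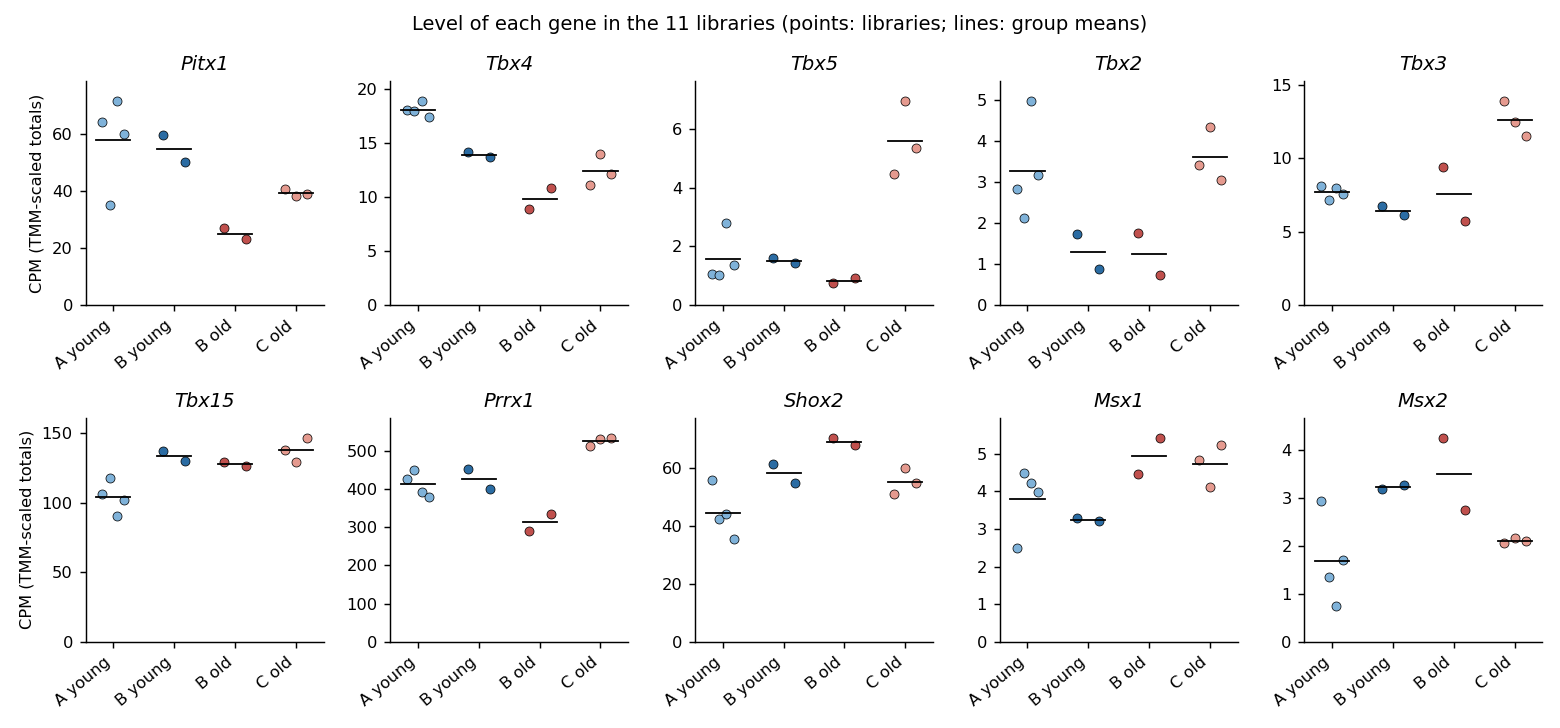
CPM (TMM-scaled totals, linear axes from 0) of the 10 genes in each of the 11 libraries, with points for libraries and lines for group means. Pitx1 is lowest in the 2 old libraries of batch B, at 27.0 and 23.2 CPM, and Tbx5 is highest in the 3 old libraries of batch C, at 4.48 to 6.94 CPM.

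Old cells of batch C were next compared with young cells of batch A, which share no library with batch B but in which age and batch cannot be told apart. Here 7 of the 10 genes were called, beside 58.5% of all tested genes. Pitx1 and Tbx4 were lower, and Tbx5, Tbx3, Tbx15, Prrx1 and Shox2 were higher in the old cells of batch C, in a comparison with 27.1% of all tested genes called higher and 31.4% lower. The median log2 fold change of the 10 genes was 0.32, beside -0.03 for all tested genes. When libraries were scaled by total counts, the median of all tested genes moved to 0.33, and the share of higher genes among all calls moved from 46.3% to 73.5%. All 10 leukocyte markers were called lower between these groups, with a median log2 fold change of -3.01, and their part in the differences of the 10 genes was not tested.

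Tbx5 differed most. It was at 1.05, 1.01, 2.81 and 1.38 CPM in the 4 young libraries of batch A and at 4.48, 6.94 and 5.37 CPM in the 3 old libraries of batch C, on 12 to 34 and 74 to 106 counts. The log2 fold change was 1.86 ± 0.30 (interval 1.23 to 2.49; adjusted p = 6.53e-05, edgeR), and the groups did not overlap. Tbx5 belongs to the genes with a mean level under 5 CPM, as do Tbx2, Msx1 and Msx2, and of the 5451 tested genes at such levels 30.2% were called higher and 14.7% lower in this comparison, with a median log2 fold change of 0.38. The part of the greater number of genes detected in batch C in the Tbx5 difference was not tested.

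The hind limb genes were lower. Tbx4 was at 18.0, 17.9, 18.8 and 17.4 CPM in batch A young and at 11.1, 14.0 and 12.1 CPM in batch C old, with no overlap (log2 fold change -0.54 ± 0.12, adjusted p = 0.000985, edgeR). Pitx1 was at 64.2, 35.2, 71.4 and 60.1 CPM in batch A young and at 40.74, 38.37 and 38.89 CPM in batch C old (-0.56 ± 0.17, adjusted p = 0.0105, edgeR). Young replicate 2 of batch A lay below all 3 old libraries of batch C, so that the groups overlapped for Pitx1. Under scaling by total counts neither gene passed the threshold (adjusted p = 0.179 for Tbx4 and 0.305 for Pitx1, edgeR), and both log2 fold changes were still negative, at -0.19 and -0.20.

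Tbx3, a repressor that is a close relative of Tbx2, was at 7.18 to 8.15 CPM in batch A young and at 11.5 to 13.9 CPM in batch C old (log2 fold change 0.71 ± 0.16, adjusted p = 0.00108, edgeR). Prrx1 was at 380.1 to 449.5 CPM in batch A young and at 512.8 to 533.2 CPM in batch C old (0.35 ± 0.09, adjusted p = 0.00388, edgeR), and Tbx15 was at 90.3 to 117.6 CPM and at 129.2 to 146.3 CPM (0.41 ± 0.09, adjusted p = 0.00133, edgeR). For none of these 3 genes did the groups overlap. Shox2 overlapped and lay close to the threshold (0.31 ± 0.12, adjusted p = 0.0400, edgeR), and it lost the call without young replicate 2, 3 or 4 of batch A and without old replicate 2 or 3 of batch C (adjusted p = 0.0635 to 0.122, edgeR). Tbx2 (0.15 ± 0.30), Msx1 (0.34 ± 0.21) and Msx2 (0.26 ± 0.34) were not called, though Msx1 was under scaling by total counts (0.69, adjusted p = 0.0109, edgeR).

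**Figure D3:**
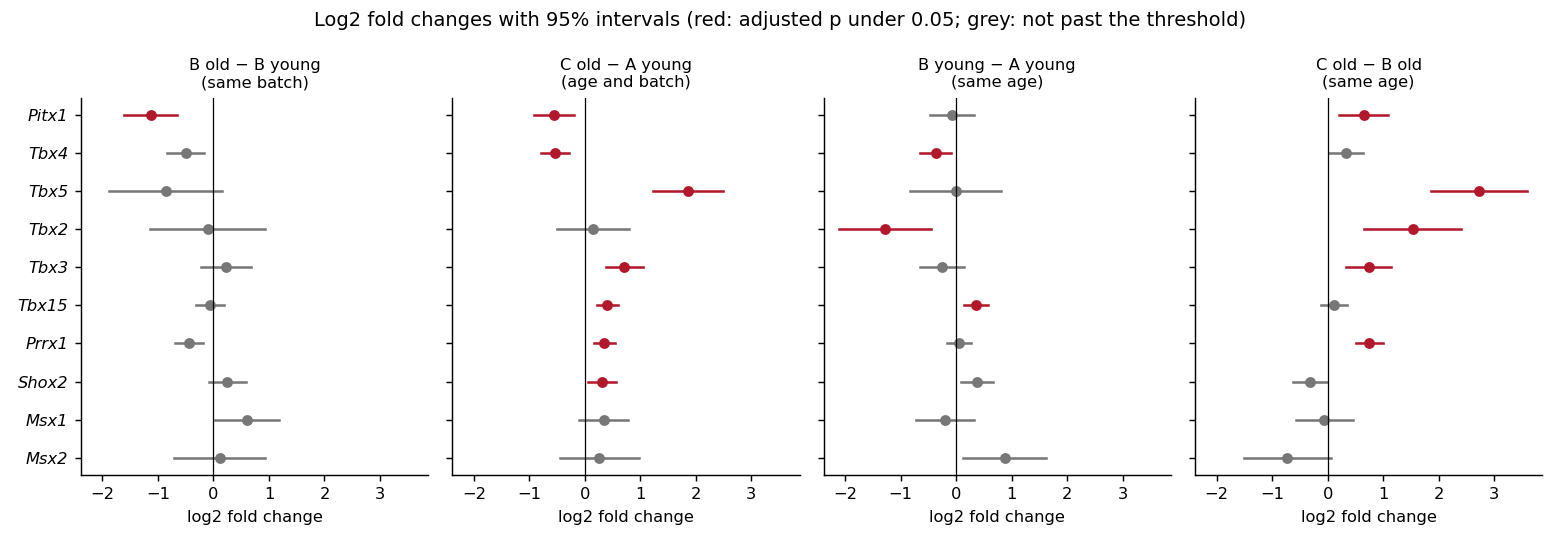
Log2 fold changes of the 10 genes with 95% intervals in 4 comparisons of groups, in red where the adjusted p was under 0.05 and in grey otherwise. In batch B Pitx1 is the only gene in red, at -1.13, whereas 7 genes are red between batch C old and batch A young.

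Whether both old-against-young differences were equal was tested in the same edgeR fit, a contrast that was added after the data had been seen. They differed for 3 of the 10 genes, beside 35.7% of all tested genes (19.8% with a higher and 15.9% with a lower value in batch B). Tbx5 had the largest difference, of -2.72 ± 0.56 on the log2 scale (adjusted p = 0.00163, edgeR), followed by Prrx1 with -0.80 ± 0.15 (adjusted p = 0.000914, edgeR) and Tbx15 with -0.47 ± 0.15 (adjusted p = 0.0240, edgeR). For all 3 genes the log2 fold change was negative in batch B and positive between batches C and A. Pitx1 and Tbx4 had negative values in both, and their differences, of -0.57 (interval -1.17 to 0.02) and 0.04 (interval -0.37 to 0.45), did not pass the threshold, which does not show that the values were equal. With no filter the Pitx1 difference was called (adjusted p = 0.00981, edgeR). The Tbx15 difference lost its call without old replicate 1 or 2 of batch B or old replicate 3 of batch C (adjusted p = 0.0572 to 0.0821, edgeR). Under scaling by total counts 5 of the 10 genes were called, with Tbx3 (adjusted p = 0.0299) and Pitx1 (adjusted p = 0.0231, both edgeR) in addition, the median of all tested genes moved from 0.03 to -0.26, and the share of higher genes among all calls from 55.5% to 29.0%.

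**Figure D4:**
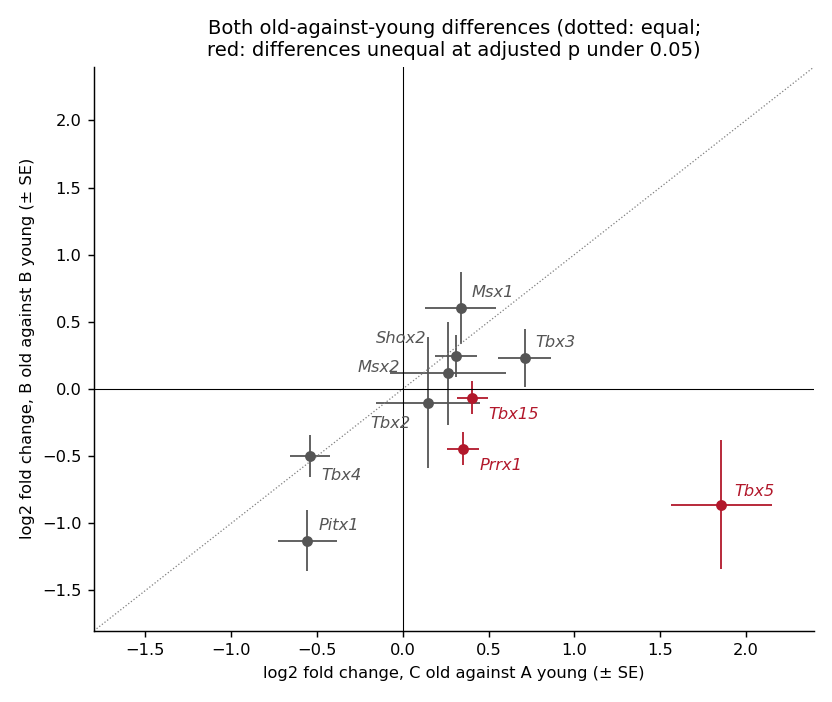
Log2 fold change with its SE in batch B (vertical axis) against that between batch C old and batch A young (horizontal axis) for the 10 genes; the dotted line marks equal values, and red marks genes whose difference was called. Tbx5, at 1.86 and -0.86, is farthest from the line, and Pitx1 and Tbx4 are negative on both axes.

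Batches were then compared at constant age. Between young cells of batches B and A, 3 of the 10 genes were called, beside 25.9% of all tested genes (12.8% higher and 13.1% lower in batch B). Tbx2 was lower in batch B, at 1.72 and 0.885 CPM against 2.83, 2.11, 4.96 and 3.17 CPM in batch A (log2 fold change -1.28 ± 0.39, adjusted p = 0.0248, edgeR). Tbx4 was also lower (-0.37 ± 0.13, adjusted p = 0.0480, edgeR) and Tbx15 was higher (0.36 ± 0.10, adjusted p = 0.0180, edgeR). The libraries did not overlap for any of these 3 genes. These calls depended on the setting, since Tbx4 was called in 1 of 15 alternatives, Tbx2 in 11 and Tbx15 in 12, and Tbx2 lost its call without young replicate 3 of batch A or young replicate 2 of batch B, and Tbx15 without young replicate 1 of batch B. Shox2, higher in batch B, lay just outside the threshold (0.38 ± 0.14, adjusted p = 0.0509, edgeR) and was called in 8 of 15 alternatives, limma-trend and DESeq2 among them (adjusted p = 0.0438 and 0.0356). Limma-trend and DESeq2 each called 2 genes higher and 1 lower. Of the 10 leukocyte markers 6 were called lower between the young groups (median -1.16), and their part in these differences was not tested. Pitx1 had a log2 fold change of -0.07 between the young groups (interval -0.47 to 0.33), and Prrx1 of 0.05 (interval -0.18 to 0.27). Under scaling by total counts the share of higher genes among all calls moved from 49.4% to 65.4%.

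Between old cells of batches C and B, 5 of the 10 genes were called, all higher in batch C, beside 55.2% of all tested genes (26.9% higher and 28.3% lower). These were Tbx5 (log2 fold change 2.72 ± 0.41, adjusted p = 4.23e-05), Tbx2 (1.53 ± 0.41, adjusted p = 0.00552), Prrx1 (0.75 ± 0.11, adjusted p = 4.62e-05), Tbx3 (0.74 ± 0.19, adjusted p = 0.00392) and Pitx1 (0.65 ± 0.21, adjusted p = 0.0163, all edgeR). The groups did not overlap for these 5 genes. Without old replicate 2 of batch B, 2 of these genes (Tbx5 and Prrx1) were called. Under scaling by total counts the median of all tested genes moved from 0.02 to 0.21, and the share of higher genes among all calls from 48.7% to 63.1%. None was called lower in the fit over all libraries, where Shox2 was lower at an unadjusted p under 0.05 (-0.32 ± 0.14). Shox2 (adjusted p = 0.00286) and Msx2 (adjusted p = 0.0257, both edgeR) were called lower when the libraries of both groups were fitted alone, and with no filter (adjusted p = 0.0308 and 0.0386, both edgeR). All 10 leukocyte markers were called lower in batch C (median -2.44), and their part in these differences was not tested.

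Ratios of related genes within a library do not depend on the scaling of libraries. The Tbx4 to Tbx5 ratio of counts per kb was 22.1 at most and 8.38 at least in batch A young, 10.97 and 11.97 in batch B young, 15.0 and 14.5 in batch B old, and 2.52 to 3.11 in batch C old. Thus the hind limb gene exceeded the forelimb gene in all 11 libraries, and the 3 libraries of batch C lay below all others. The Tbx2 to Tbx3 ratio was below 1 in all libraries, with geometric means of 0.554 for batch A young, 0.263 and 0.212 for young and old cells of batch B, and 0.388 for batch C old. Msx1 exceeded Msx2 in all libraries per length, by 1.08 to 7.18 times in batch A young, 1.24 to 1.31 times in batch B young, 1.33 to 2.50 times in batch B old and 2.42 to 3.15 times in batch C old. The batch A young libraries thus spanned the whole range of the other groups for this pair, which rests on 9 to 63 counts of Msx2.

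**Figure D5:**
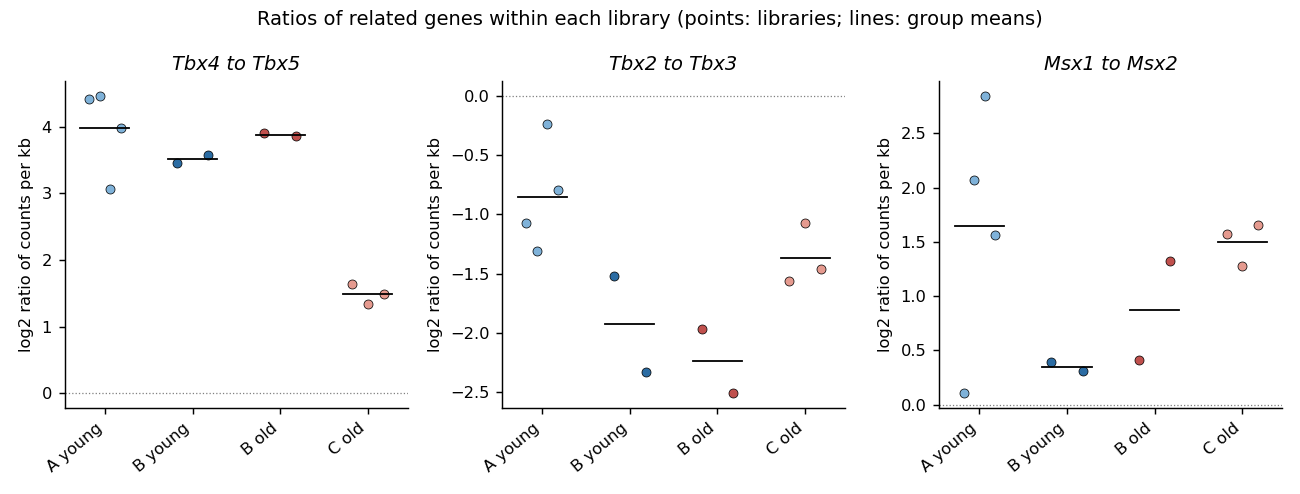
Log2 ratios of counts per kb of Tbx4 to Tbx5, Tbx2 to Tbx3 and Msx1 to Msx2 within each library, with points for libraries, lines for group means and a dotted line at equal levels. The 3 libraries of batch C lie at 1.34 to 1.64 for Tbx4 to Tbx5, and the other 8 at 3.07 to 4.47.

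The posterior HoxC genes Hoxc10 and Hoxc11, which are expressed in the hind limb region, were present in all libraries. Their summed level was 56.1 to 58.7 CPM in batch A young, 45.2 to 50.8 CPM in batch B young, 35.0 to 36.3 CPM in batch B old and 49.4 to 51.5 CPM in batch C old. Within batch B, Hoxc10 was lower in old cells (log2 fold change -0.47 ± 0.11, adjusted p = 0.0327, edgeR). The more anterior genes Hoxc4 and Hoxc5 summed to 37.6 to 53.2, 33.4 to 39.96, 27.0 to 31.1 and 63.1 to 68.0 CPM in the same order, so that they were highest in batch C, as was Tbx5. Hoxc11, the smaller part of the hind limb sum, also had its highest mean in batch C old, at 7.37 CPM. Its means were 6.01 CPM in batch A young, 5.43 CPM in batch B young and 4.86 CPM in batch B old, and the highest batch A library reached 7.96 CPM. Hoxc9 was not analysed here.

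Of 30 further transcription factors of limb and mesenchyme, 25 were tested. Within batch B 1 was lower and 0 were higher in old cells (edgeR), with a median log2 fold change of -0.14. At an unadjusted p under 0.05 in edgeR 6 differed, beside 2597 of all 16132 tested genes. DESeq2 called 2 of the 25 and limma-trend 1, all lower. The lower gene in edgeR was Alx4, a homeodomain factor of the anterior limb bud, at 11.9 and 11.6 CPM in young and 3.03 and 5.41 CPM in old libraries (-1.48 ± 0.36, adjusted p = 0.0403, edgeR). Between batch C old and batch A young 6 were higher and 4 lower, beside 27.1% higher and 31.4% lower of all tested genes (within batch B 0.694% and 1.54%). Osr2 (1.89 ± 0.26, adjusted p = 1.38e-05) led the higher ones, and Etv5 (-0.66 ± 0.11, adjusted p = 0.000139) and Prrx2, the paralogue of Prrx1 (-0.46 ± 0.08, adjusted p = 0.000144, all edgeR), the lower ones. Hand2 and Lhx2, named after their values were seen, were the other lower genes.

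Prrx1 and Prrx2 therefore had log2 fold changes of opposite sign in this comparison, at 0.35 and -0.46, and in batch B both were negative without a call, with -0.17 for Prrx2. Of 12 further T-box genes 11 were in the table and 4 were tested. None was called within batch B (edgeR, limma-trend and DESeq2, and 0 at an unadjusted p under 0.05). Between batch C old and batch A young 3 were higher, namely Mga (1.43 ± 0.10, adjusted p = 2.89e-08), Tbx18 (0.69 ± 0.10, adjusted p = 2.49e-05) and, named after its value was seen, Tbx6 (2.13 ± 0.63, adjusted p = 0.00845, all edgeR), the last on 0 to 14 counts per library. Of all tested genes 27.1% were called higher in this comparison.

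A list of 19 genes around limb signalling held fibroblast growth factors, Wnt and BMP ligands, antagonists and targets, and the cell cycle inhibitors Cdkn1a and Cdkn2a. Of these 19 genes 17 were in the table and 14 were tested. Within batch B 2 were lower and 0 higher in old cells (edgeR), and limma-trend and DESeq2 each called 2, all lower. At an unadjusted p under 0.05 in edgeR 4 differed, beside 2597 of all 16132 tested genes. Grem1, a secreted BMP antagonist of the limb bud, was at 118.0 and 114.4 CPM in young and at 56.5 and 48.5 CPM in old libraries (-1.15 ± 0.15, adjusted p = 0.00102, edgeR). Smad6, an inhibitor of BMP signal transduction, was at 74.6 and 68.1 against 57.6 and 41.2 CPM (-0.53 ± 0.13, adjusted p = 0.0466, edgeR). Grem1 was higher in batch B young than in batch A young by 2.17 ± 0.13 on the log2 scale (adjusted p = 2.87e-07, edgeR), and higher in batch C old than in batch A young by 1.16 ± 0.12 (adjusted p = 9.12e-07, edgeR). In the latter comparison 6 genes of the list were higher and 3 (Bmp4, Id3 and Cdkn1a, named after their values were seen) were lower. Of all tested genes 27.1% were higher and 31.4% lower there, and within batch B 0.694% and 1.54%.

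The genes of most similar pattern were sought for the limb identity genes as those with the smallest root mean square difference of centred log2 CPM over the 11 libraries. For Pitx1 these were Ampd3 (0.183), Itga3 (0.184) and an Aldoa gene (ENSMUSG00000114515, 0.201), against a median of 0.639 for all tested genes. The Aldoa entry had under 1 CPM in all group means and shares its symbol with another gene, so that its value is uncertain. Tbx4 ranked 89th for Pitx1, with 0.330, whereas Pitx1 ranked 2952nd for Tbx4, at the same distance and against a median of 0.519. For Tbx4 they were Spg20 (0.101), Ptgfrn (0.106) and Eml2 (0.108). For Tbx5 they were the predicted genes Gm11627 (0.290), Gm10037 (0.300) and Gm9801 (0.310), all of which had their highest group mean in batch C, at 0.733 to 1.51 CPM. Their means in the other groups were at most 0.259 CPM, close to or under the floor of 3 counts (0.156 to 0.253 CPM). All similarities of pattern are descriptions over libraries that share batches.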

How the data were processed

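RNA-seq libraries were assigned to groups of age and batch by their titles. The authors deposited 1 table of raw, unnormalised counts. According to the methods of the study, which describe an oxygen comparison and were assumed to hold here, single-end reads were aligned with STAR within zUMIs to GRCm38 and counted with featureCounts. Whether molecular identifiers were collapsed or strand was used is not given in the sources used here. Of the gene identifiers, 28143 had a symbol and transcript in GENCODE M21 and 79 did not.

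Counts were tested in edgeR 4.0.16 (R 4.3.3) by quasi-likelihood, two-sided, over all 11 libraries with 1 mean per group of batch and age, filterByExpr with a minimum count of 5, TMM factors, and Benjamini-Hochberg adjustment over all tested genes at 0.05. All adjusted p-values are from this fit unless another tool is named. Standard errors are the log2 fold change over the root of F. CPM used TMM-scaled totals, log2 CPM a prior count of 2, and CPM per kb the longest transcript. The depth, 11969336 to 20315934 counts per library, sets a floor of 3 counts that covers counting error only. Promoters were taken from RefSeq, and codons from GENCODE transcripts. Fits were tested on simulated data.

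Alternatives were limma-trend (limma 3.58.1), DESeq2 1.42.0, RLE factors, total counts, no filter, a minimum count of 10, thinning to the smallest total, the libraries of both groups alone, the replicate number as a block, no batch term, and leaving out each library. No library was left out of the main fit. Libraries of a group differed beyond sampling noise (chi-square per gene of at least 3.24).

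The members and lists were chosen with earlier results of these data known. Of the 3 other gene lists, those called within batch B are named, up to 3 per direction by p-value, and, with fewer than 2 calls, up to 2 per direction between batch C old and batch A young. A gene that this rule would name is not reported here.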

Additional observations from a re-analysis of the deposited data

Results flagged for a closer look

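For 3 genes the old-against-young difference within batch B and that between batch C old and batch A young were unequal in a test of the difference itself (edgeR, 16132 tested genes). The difference of both log2 fold changes was -2.72 for Tbx5 (interval -3.91 to -1.53, adjusted p = 0.00163), -0.47 for Tbx15 (interval -0.79 to -0.15, adjusted p = 0.0240) and -0.80 for Prrx1 (interval -1.12 to -0.47, adjusted p = 0.000914). For Tbx5 the log2 fold change was -0.86 within batch B, where both old libraries lay below both young libraries, and 1.86 between batches C and A, where all 3 old libraries lay above all 4 young libraries. For Prrx1 the values were -0.44 and 0.35, and for Tbx15 -0.06 and 0.41. Of all tested genes 35.7% were called in this test, and age and batch cannot be told apart between batches C and A. In the 10 genes, no library of batch A young, the only group of 4 libraries, stood apart from the others by Dixon's criterion.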

How the results depend on the processing

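Over all comparisons, 780 log2 fold changes of the 10 genes were recomputed, of which 671 kept their direction and their side of the threshold, 39 lost the call, 30 gained one and 40 changed sign. Within batch B, 2 genes instead of 1 were called with DESeq2, with no filter and with age and no batch term, and 0 to 2 when 1 library was left out. The number of all called genes was 360, and 643 with DESeq2, 1094 with no filter, 2641 with no batch term, 123 with the batch B libraries alone, and 84, 203, 206 and 2007 without old replicates 1 and 2 and young replicates 1 and 2. A lone library was then assumed to vary like the other groups. The fit with no batch term compared ages over all 11 libraries, so that batches A and C entered. Its counts of called genes are thus not within batch B. Between batch C old and batch A young 6 to 7 genes were called in each alternative, though under total counts Tbx4 and Pitx1 lost their call and Msx1 gained one. Between batch B young and batch A young, 1 gene was called instead of 3 with these libraries alone and 1 to 4 when 1 library was left out, and of all genes 4171 were called, 2686 with these libraries alone and 1701 without young replicate 2 of batch B. Between batch C old and batch B old 2 to 6 genes were called instead of 5 when 1 library was left out. For the difference of both differences, 5 genes instead of 3 were called under total counts, and 2 to 3 when 1 library was left out.

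With the replicate number as a block, 0 genes instead of 3 were called between batch B young and batch A young, where 2591 of all genes were called, and no other count of the 10 genes moved by over 1.5 times. Shox2 between batches C and A (adjusted p = 0.136) and the Tbx15 difference of differences (adjusted p = 0.0621, both edgeR) also lost their call. Deviations of libraries with the same number correlated across genes by -0.11 to 0.044. These values cannot decide whether the numbers pair the samples, which the labels do not state. Most of them compare different batches. Within batch B the deviations of the libraries of a group mirror each other, which leaves a single value of 0.037. With the block, Tbx5 (0.17), Pitx1 (0.070) and Prrx1 (-0.0077) changed sign between the young groups, as did Shox2 (0.029) for the difference of both differences.

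The other changes of sign concerned log2 fold changes near 0 or the batch term. With no batch term the age difference was 0.054 for Tbx2, 1.28 for Tbx5, 0.25 for Tbx15 and 0.099 for Prrx1, where libraries of batches A and C enter. Between the young groups Tbx5 was at 0.075 with limma-trend, 0.0051 with RLE factors, 0.091 under total counts, 0.0036 with no filter and 0.0085 with these libraries alone, and Pitx1 at 0.023 under total counts. Under total counts Msx1 was at 0.13 between the old groups and at -0.019 for the difference of both differences, and Tbx4 at -0.25 for the latter, where it was at -0.0028 with DESeq2, -0.0030 with RLE factors and -0.040 after thinning.

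When 1 library was left out, values that changed sign ranged within batch B from -0.84 to 0.48 (Tbx2), -0.16 to 0.54 (Tbx3) and -0.22 to 0.39 (Msx2), between batches C and A from -0.00099 to 0.41 (Tbx2), between the young groups from -0.17 to 0.43 (Tbx5), -0.25 to 0.048 (Pitx1) and -0.044 to 0.13 (Prrx1), and between the old groups from -0.20 to 0.085 (Msx1). For the difference of both differences they ranged from -0.996 to 0.34 (Tbx2), -0.11 to 0.17 (Tbx4), -0.21 to 0.028 (Shox2) and -0.63 to 0.13 (Msx2). Calls were gained by Shox2 and Msx2 between the young groups without young replicate 1 of batch A (adjusted p = 0.00347 and 0.00561), by Tbx4 between the old groups without old replicate 1 of batch C (0.0422) and by Tbx3 for the difference of both differences without old replicate 1 of batch B (0.0240, all edgeR). The cause was not tested. Thinning moved the mean log2 ratio of Tbx4 to Tbx5 and of Msx1 to Msx2 in batch B young by more than 1 SD, to 3.64 and 0.54. Tbx2, Tbx5, Msx1 and Msx2 had 9 to 106 counts per library, which limits their precision.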
